A study of Mus musculus with 21 samples.

Results

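The transcripts described here come from 40 genes of the dividing cell, 23 needed to copy DNA in S phase and 17 needed to enter, run and leave mitosis. The genes were listed by name and role, with earlier results of these data known but no measured value in the rule, and were matched by symbol in each of 3 deposited mouse RNA-seq tables, which together list 23224 distinct genes. All 40 were found in each table. The S phase genes were Mcm2, Mcm3, Mcm4, Mcm5, Mcm6, Mcm7, Mcm10, Pcna, Pola1, Pold1, Pole, Prim1, Rfc2, Rfc3, Rfc4, Rfc5, Fen1, Gins1, Gins2, Cdc45, Cdc6, Cdt1 and Ticrr. The mitotic genes were Mki67, Top2a, Cdk1, Ccna2, Ccnb1, Ccnb2, Aurka, Aurkb, Bub1, Bub1b, Plk1, Cdc20, Kif11, Birc5, Tpx2, Ube2c and Nusap1.

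The study asked how iron bears on the making of eosinophils, the granulocytes of allergic inflammation, and all of its cells are labelled WT. One table holds untreated bone marrow eosinophils (n = 3) and untreated granulocyte-macrophage progenitors (GMPs, n = 3), the marrow cells from which granulocytes arise. Another holds untreated eosinophils, called resting here (n = 3), and eosinophils given IL-4 and GM-CSF, called T2 (n = 3). Beside these the T2 labels name IL33 for replicate 1, IL34 for replicate 2 and IL35 for replicate 3. The remaining table holds bone marrow-derived eosinophils (BMDEs) as untreated controls (n = 2), with 5 µM DFO (deferoxamine, an iron chelator, n = 3) or with 10 µM FAC (ferric ammonium citrate, an iron source, n = 4). The BMDE culture ran for 4 days with SCF and FLT3 ligand, each at 100 ng/mL, before a change to 10 ng/mL IL-5, with the iron agent given on day 4 and RNA taken on day 7. All 21 samples carry this same culture text, which leaves the isolation of the GMPs and of the other eosinophils unknown, as is the age of the mice. Separate animals or cultures behind the replicates are not stated, so p-values here speak only of the spread among libraries, which may be technical.

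Copying of the genome starts when Cdc6 and Cdt1 load the ring of Mcm2 to Mcm7, the replicative helicase, onto origins. Cdc45, the GINS complex (Gins1 and Gins2 among its subunits), Mcm10 and Ticrr turn the loaded ring into a moving helicase. The polymerases and primase then synthesise DNA, and the Rfc proteins load the clamp Pcna. In mitosis Cdk1 with its cyclins drives entry, the Aurora kinases and Plk1 steer spindle and chromosomes, Bub1 and Bub1b hold the cell until chromosomes are attached, and Cdc20 and Ube2c mark proteins for destruction at exit. Progenitors of the granulocyte series divide, and mature granulocytes are known as cells that no longer do.

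The promoters of both gene groups are shown first, and their part in the levels described below was not tested. E2F factors are known regulators of S phase genes, and the cell cycle homology region (CHR) and the CCAAT box are known elements of mitotic promoters. RefSeq promoter windows on GRCm38.p6, running from 250 bases before to 50 bases after the start, were on hand for 32 of the 40 genes, with 2 windows each for Fen1 and Mcm7. Both strands were searched for TTTCCCGC, TTTGGCGC, TTTCGCGC or TTTGCCGC as E2F motifs, for TTTGAA or TTCGAA as CHR and for CCAAT. An E2F motif was in 9 of 20 S phase windows (45.0%), in 1 of 14 mitotic windows (7.14%) and in 2.26% of all 32851 windows. CHR letters were in 5 of 20 S phase windows (25.0%), in 11 of 14 mitotic windows (78.6%) and in 19.2% of all windows. CCAAT was in 13 S phase windows (65.0%), in 12 mitotic windows (85.7%) and in 37.4% of all. These are matches of letters and no measure of binding.

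The 160 bases before the start of 6 genes follow, 5′ to 3′ on the gene's strand, with matched letters in capitals (motifs on either strand, with adjoining or overlapping matches running together). Mcm6 and Mcm5 stand for the helicase ring, Pola1 for the polymerases and primase, and Cdk1, Ube2c and Kif11 for the mitotic genes. Of the polymerase and primase genes 0 of 4 were called in the cultures with all libraries and the 3 arms fitted together.
Mcm6, chr1:128359706-128359865, minus strand: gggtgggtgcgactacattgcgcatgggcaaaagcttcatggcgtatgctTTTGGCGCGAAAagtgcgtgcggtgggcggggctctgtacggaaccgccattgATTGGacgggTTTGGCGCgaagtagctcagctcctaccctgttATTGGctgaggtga
Mcm5, chr8:75109349-75109508, plus strand: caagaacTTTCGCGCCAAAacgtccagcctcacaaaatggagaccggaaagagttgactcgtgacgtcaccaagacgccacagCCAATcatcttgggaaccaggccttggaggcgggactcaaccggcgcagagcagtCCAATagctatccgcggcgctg
Pola1, chrX:93632156-93632315, minus strand: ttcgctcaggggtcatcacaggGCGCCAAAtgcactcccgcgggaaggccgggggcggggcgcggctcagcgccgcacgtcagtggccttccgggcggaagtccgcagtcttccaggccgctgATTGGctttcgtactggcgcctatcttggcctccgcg
Cdk1, chr10:69352913-69353072, minus strand: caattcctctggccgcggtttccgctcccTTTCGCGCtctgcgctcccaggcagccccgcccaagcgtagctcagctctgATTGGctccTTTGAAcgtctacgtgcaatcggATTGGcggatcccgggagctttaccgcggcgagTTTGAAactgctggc
Ube2c, chr2:164769769-164769928, plus strand: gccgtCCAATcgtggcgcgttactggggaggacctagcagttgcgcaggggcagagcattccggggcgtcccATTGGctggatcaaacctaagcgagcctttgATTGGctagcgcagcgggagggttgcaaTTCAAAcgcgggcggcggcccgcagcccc
Kif11, chr19:37376222-37376381, plus strand: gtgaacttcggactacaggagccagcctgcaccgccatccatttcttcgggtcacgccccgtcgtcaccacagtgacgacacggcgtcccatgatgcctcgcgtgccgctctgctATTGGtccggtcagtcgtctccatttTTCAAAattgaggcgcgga
Mcm6 held 3 E2F matches in this stretch, Mcm5 held 2, Pola1 and Cdk1 held 1 each and Ube2c and Kif11 held none. Cdk1 held 2 CHR matches, and Ube2c and Kif11 held 1 each.

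Libraries of the GMP table held 25857361 to 28992674 counts, those of the T2 table held 16073573 to 18995878 and those of the BMDE table held 16809773 to 17991870. Levels below are CPM, a gene's counts over the library's total on a common scale, adjusted with TMM factors within a table, and the 3 tables were normalized separately, so levels set across tables carry no test. TMM factors ran from 0.914 to 1.21 except in bone marrow eosinophil replicate 3, at 0.689. That library and FAC replicate 6 stood apart from the rest of their groups, and results are given without them where that changes a count. The bone marrow eosinophil libraries had the markers of their label (Prg2 at 16047 CPM), and also 10 of 10 neutrophil markers at 10 CPM or more in each library. Above Prg2 in them stood S100a8, a neutrophil marker, at 31236 CPM and Mpo, a primary granule marker, at 32203 CPM. Their 10 neutrophil markers summed to 101087 ± 86127 CPM (n = 3) and their 10 eosinophil markers to 25769 ± 9642. GMPs had Mpo at 47089 CPM, resting eosinophils had Ccr3 at 2670 CPM, and control BMDEs had Prg2 at 21858 CPM.

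Across the 7 groups both gene sets were high in progenitors, marrow eosinophils and cultures and low in resting and T2 eosinophils. Summed over the 23 S phase genes the level was 6909 ± 226 CPM in GMPs (SD, n = 3), 4783 ± 549 in bone marrow eosinophils (n = 3), 2606 ± 53.5 in FAC BMDEs (n = 4), 2435 ± 31.5 in control BMDEs (n = 2), 1971 ± 22.8 in DFO BMDEs (n = 3), 338 ± 14.1 in resting eosinophils (n = 3) and 243 ± 8.13 in T2 eosinophils (n = 3). The 17 mitotic genes came in another order. Their sum was 3442 ± 215 CPM in bone marrow eosinophils, 3393 ± 299 in FAC BMDEs, 3042 ± 26.4 in control BMDEs, 2968 ± 181 in GMPs, 2333 ± 49.99 in DFO BMDEs, 85.0 ± 0.244 in resting and 71.3 ± 6.04 in T2 eosinophils, and the ranges of the first 4 groups overlapped in part. Mitotic over S phase sums were therefore lowest in resting eosinophils (0.252) and T2 eosinophils (0.294), then 0.430 in GMPs and 0.725 in bone marrow eosinophils, and above 1 in each of the 9 BMDE libraries. On the per-length scales resting and T2 eosinophils changed places and the BMDE ratios were lower, with ratios of 0.171 in resting, 0.169 in T2, 0.443 in GMPs, 0.767 in bone marrow eosinophils and from 0.810 in DFO to 0.991 in FAC BMDEs. In bulk RNA fewer cycling cells and less of these transcripts per cell cannot be told apart.

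**Figure D1:**
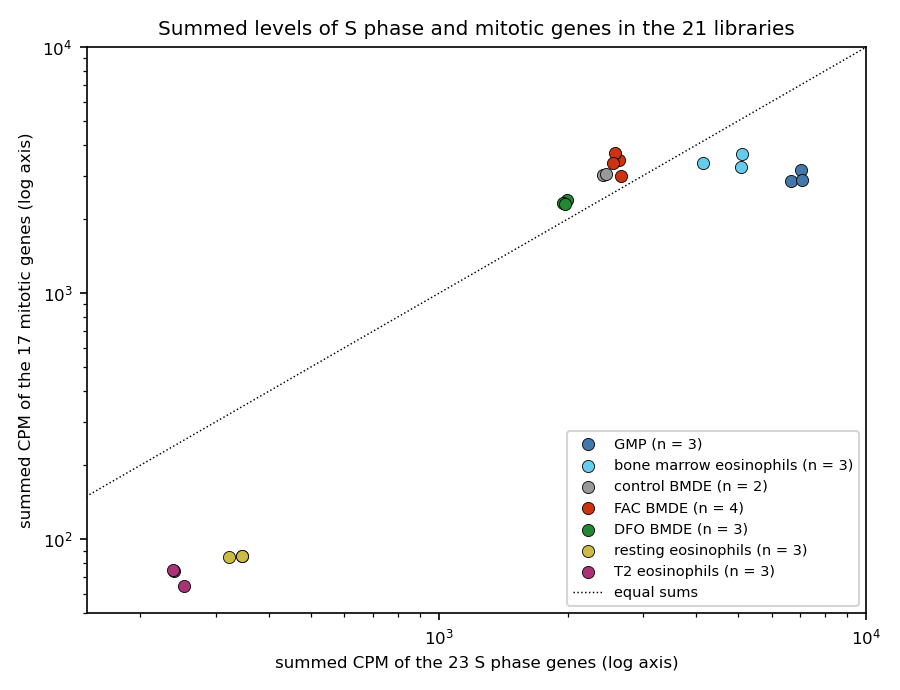
Each point is 1 library, with summed CPM of the 23 S phase genes (x, log axis) against summed CPM of the 17 mitotic genes (y, log axis), colored by group, and the dotted line marks equal sums. BMDE libraries lie above that line, GMPs and bone marrow eosinophils lie below it, and resting and T2 eosinophils lie far down at the left.

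The genes that led each set also differed. Compared per transcript length, Mcm6 was the highest S phase gene in GMPs (937 ± 60.3 TPM), while Pcna led in control BMDEs (412 ± 3.04 TPM) and in resting eosinophils (40.6 ± 1.25 FPKM). In bone marrow eosinophils Mcm6 had the highest mean (277 ± 146 TPM), near Pcna (261 ± 31.2) and Rfc2 (244 ± 95.4). In replicate 3 of that group Mcm6 lay below both. Ube2c led the mitotic genes in the BMDEs and bone marrow eosinophils. In resting eosinophils Mki67, the proliferation antigen that coats mitotic chromosomes, came first at 4.67 ± 0.721 FPKM, ahead of Top2a, the topoisomerase that untangles sister DNA, at 2.17 ± 0.140, and of Ube2c at 1.91 ± 0.927. As a share of reads, not per length, Mki67 made up 47.5% ± 1.95 of all mitotic reads in resting and 55.5% ± 3.18 in T2 eosinophils, against 28.2% ± 0.367 in control BMDEs.

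Mki67 stood at 171, 173 and 151 CPM in GMPs, at 154, 124 and 133 in bone marrow eosinophils, at 843 and 869 in control BMDEs, and at 40.9, 38.6 and 41.6 in resting eosinophils. With all libraries, TMM scaling, the BMDE arms fitted together and no offsets, no comparison called it. Without FAC replicate 6 it was called in DFO against control (-0.30), FAC against control (0.23) and FAC against DFO (0.54), and length and GC offsets called it in the same 3. In CPM the bone marrow eosinophils and GMPs thus had less Mki67 and more Mcm6 than the BMDE cultures, which stand in another table, so no test was made.

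Bone marrow eosinophils against GMPs asked which transcripts change as a progenitor becomes an eosinophil in the marrow. The eosinophil libraries also held the high neutrophil and primary granule transcripts given above, so the comparison is not of eosinophil transcripts alone. S phase genes were mostly lower in the eosinophils, and the members called higher were all mitotic. Calls needed an adjusted p below 0.05 (edgeR quasi-likelihood F test, Benjamini-Hochberg over 12214 genes). Among the S phase genes 4 of 23 fell and none rose (none higher by DESeq2 or at an unadjusted p under 0.05), where 6.78% of all tested genes were called lower and 13% higher, 19.8% in all. The 4 were Mcm4 and Mcm6 of the helicase, Pola1, the catalytic subunit of the polymerase that extends primers, and Pole, that of the leading strand polymerase. The median over the 23 was -0.41 on the log2 scale, against 0.01 over all genes tested. In 14 of the 23 every eosinophil library lay below every GMP library and in 1 every one lay above, against 24.7% and 23.7% of all genes.

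Of the helicase ring 2 of 6 genes fell. Mcm6 measured 1286, 1246 and 1291 CPM in GMPs and 784, 745 and 602 in the eosinophils, a fitted change of -0.84 ± 0.17 (SE, adjusted p = 0.016), a call lost without eosinophil replicate 2 or any 1 GMP library (adjusted p from 0.056 to 0.10 by edgeR). All 6 Mcm2 to Mcm7 had groups that did not overlap, with changes from -0.94 to -0.41. Of the loaders, Cdc6 measured 151, 143 and 135 CPM in GMPs and 128, 95.0 and 112 in the eosinophils, lower in every library but not called. The activators were uneven. Cdc45 overlapped between groups, at 113, 113 and 129 CPM in GMPs and 85.9, 129 and 95.4 in the eosinophils.

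Pola1 had the lowest change of all 40 genes. It measured 139, 143 and 108 CPM in GMPs and 52.8, 51.6 and 34.9 in the eosinophils, a change of -1.49 ± 0.22 (adjusted p = 0.0060). Pold1, the catalytic subunit for the lagging strand, was lower by less, at 344, 331 and 335 CPM against 272, 266 and 280.4, and was not called. None of the 6 genes of the clamp, its loader and the flap nuclease Fen1 was called, and their changes ran from -0.43 for Rfc5, with groups that did not overlap, and -0.39 for Fen1 to 0.68 for Rfc4. Pcna was 195, 189 and 201 CPM in GMPs and 193, 277 and 429 in the eosinophils, and Rfc4, a clamp loader subunit, had the highest S phase change at 0.68 ± 0.40 (adjusted p = 0.26). Under length and GC offsets Rfc4 turned to -0.36, so its direction depends on that setting.

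Among the mitotic genes 4 of 17 rose, where 13% of all genes were called higher, and none fell, by DESeq2 and at an unadjusted p under 0.05 also none. Every eosinophil library lay above every GMP library in 7 of the 17 and below in 2, against 23.7% and 24.7% of all genes. They were Cdk1 (1.22 ± 0.27, adjusted p = 0.024), Plk1 (0.83 ± 0.22, adjusted p = 0.042), Birc5, the survivin subunit of the chromosomal passenger complex (0.68 ± 0.16, adjusted p = 0.030), and Ube2c, the ubiquitin-conjugating enzyme of mitotic exit (1.32 ± 0.21, adjusted p = 0.0074). Ube2c measured 115, 82.8 and 96.5 CPM in GMPs and 194, 269 and 273 in the eosinophils, and Cdk1 125, 108 and 116 against 174, 275 and 364. Both pairs of groups stayed apart. The lowest mitotic change was that of Bub1b, at 238, 198 and 225 CPM in GMPs and 209.7, 183 and 120.2 in the eosinophils (-0.37 ± 0.23, adjusted p = 0.29). Ccna2, Aurkb and Kif11, the spindle motor, were not called either. Ccna2 was at 224, 203 and 191 against 170.0, 234 and 207, Aurkb at 234, 209.9 and 231 against 206, 199.6 and 154, and Kif11 at 250.1, 251 and 203 against 206, 209 and 189. The median over the 17 mitotic genes was 0.17.

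These directions are relative to the other genes. With library totals alone in place of TMM the median of all genes was -0.41, that of the mitotic genes -0.18 and that of the S phase genes -0.78, and the mitotic genes called higher were 2. On the authors' TPM scale the mitotic sum was 1802 ± 747 in the eosinophils and 2649 ± 166 in GMPs, the other direction from CPM. Replicate 3 of the eosinophils held Ticrr at 3.54 CPM beside 43.6 and 37.9 in the other libraries, and Rfc4 at 182 beside 57.7 and 92.5. Without eosinophil replicate 3 the calls were 9 S phase genes lower and 6 mitotic genes higher. Of all 12648 genes tested 2078 were then called lower and 2545 higher, against 828 and 1585 of 12214 with all libraries. Without any 1 GMP library the calls were 1 and 1, where 125 to 220 of all genes were called lower and 622 to 754 higher. Without eosinophil replicate 2 the mitotic genes called higher were 1, where 1022 of 12456 genes were called higher. Leaving out eosinophil replicate 1 gave 1 S phase gene called higher, where 1977 of 12467 genes were. Markers of other cells moved with this comparison. The 10 neutrophil markers summed to between 33219 and 197975 CPM in the eosinophils against 65.9 to 98.3 in GMPs, and 10 erythroid markers to between 1103 and 2335 against 13.3 to 17.9, with Ahsp at 0 throughout. The 8 progenitor and primary granule markers overlapped, at 39712 to 62895 and 51436 to 61720 CPM. The part of these in the result was not tested.

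Lists of other cell cycle genes were read beside the members, again against 6.78% of all genes called lower and 13% higher. Of 44 other replication genes 7 fell and 1 rose. Orc1, of the origin recognition complex, fell by 1.40 ± 0.35 and Wdhd1, which ties polymerase to helicase, by 0.95 ± 0.17, while Asf1b, a histone chaperone, rose by 0.97 ± 0.17. Of 50 other mitosis genes 4 fell and 3 rose, shares near or below those of all genes, with the kinesins Kif20b (-1.12 ± 0.23) and Kif15 (-0.93 ± 0.21) lowest and Spc25 of the kinetochore (1.69 ± 0.45) and Cenpa, the centromeric histone (0.98 ± 0.27), highest. Of 19 cell cycle transcription regulators E2f2 (2.24 ± 0.22) and Lin37 (0.96 ± 0.25) rose and E2f3 (-1.20 ± 0.33) fell.

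**Figure D2:**
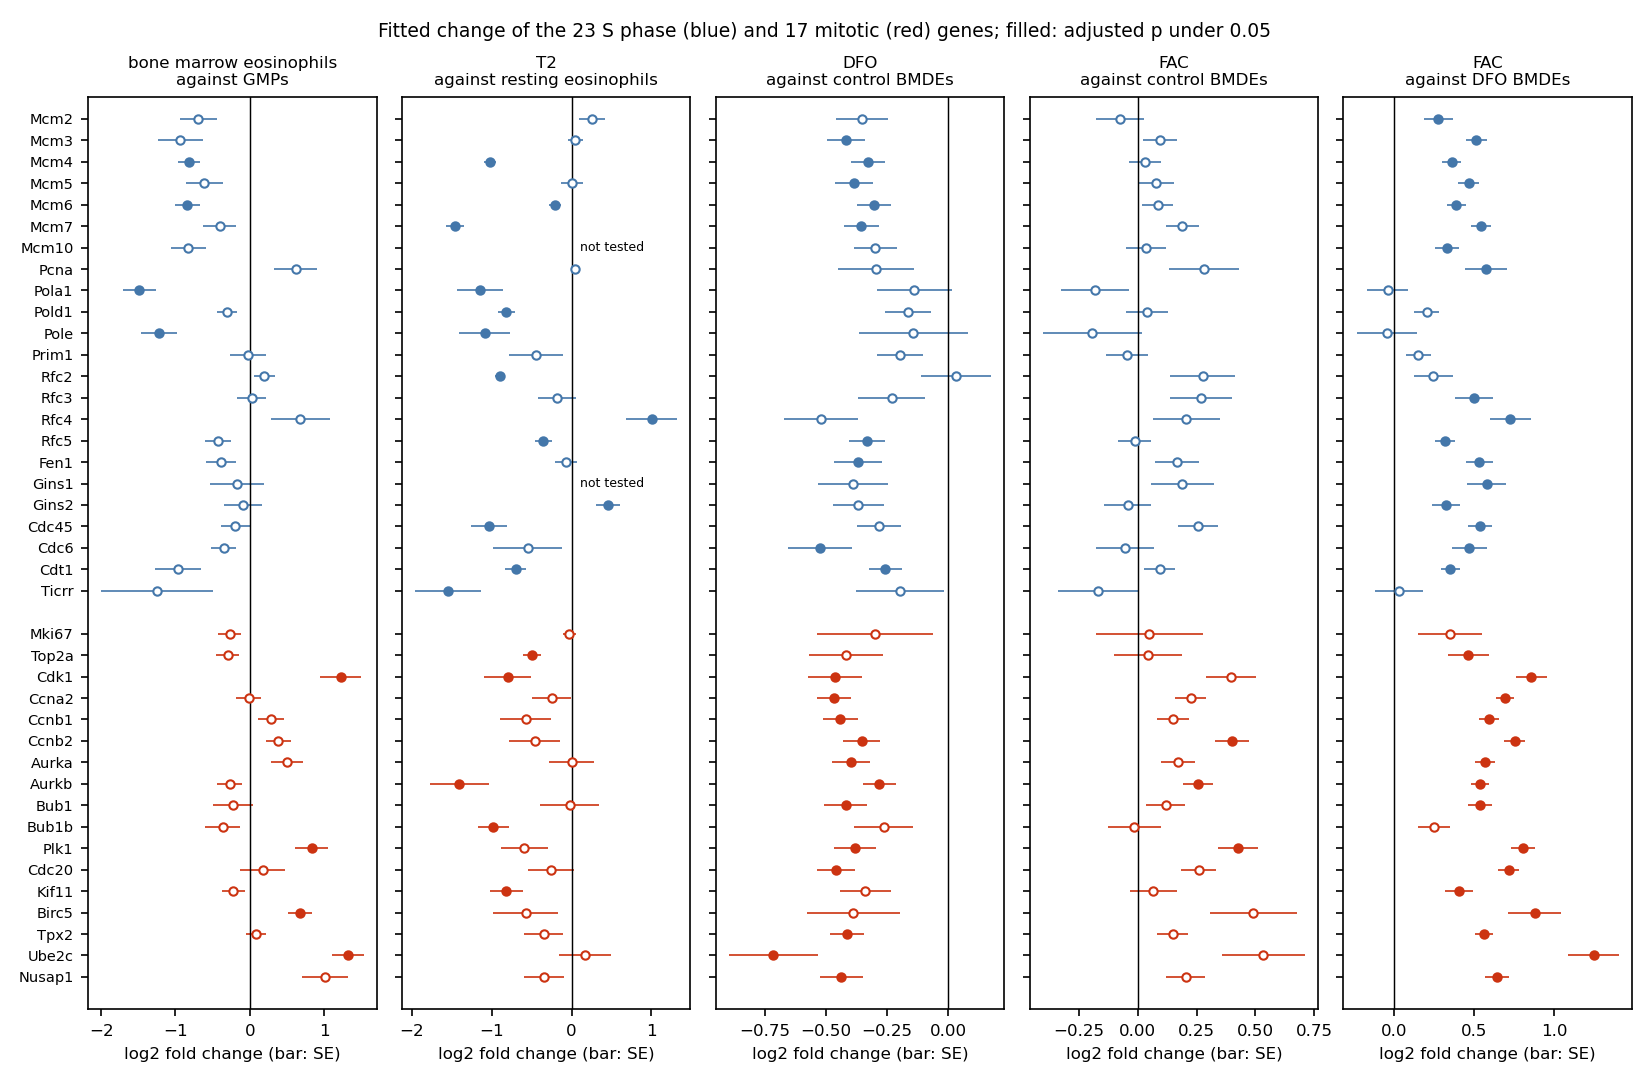
Fitted log2 fold change (x) of each of the 40 genes (y) in the 5 comparisons, with bars for the SE and filled points for an adjusted p under 0.05. In bone marrow eosinophils against GMPs the 2 gene sets overlap, with S phase genes mostly left of 0 and mitotic genes on both sides. Both sets lie left of 0 in DFO against control apart from Rfc2, and mostly right of 0 in FAC against DFO.

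T2 against resting eosinophils asked what cytokines of an allergic response do to eosinophils. Both gene sets were low, and 11 S phase and 5 mitotic genes fell with cytokines. Of the S phase genes 21 could be tested, since Mcm10 (at most 11 counts in a library) and Gins1 (at most 9) did not pass the filter on low counts. Of these 11 fell and 2 rose, where 37.9% of all tested genes were called lower and 38.2% higher, in a comparison where 76.1% of all genes were called in one direction or the other. The median was -0.44, against -0.01 over all genes. Among the mitotic genes 5 of 17 fell and none rose (none by DESeq2 or at an unadjusted p under 0.05), with a median of -0.46, a share called lower that is below that of all genes.

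Rfc2, a clamp loader subunit, measured 106, 104 and 97.0 CPM at rest and 51.4, 54.8 and 59.3 with cytokines, a change of -0.89 ± 0.06 (adjusted p = 1.7e-09). Pcna was at 55.3, 58.0 and 58.2 CPM against 59.2, 56.7 and 60.9 and was not called (0.04 ± 0.05, adjusted p = 0.48 by edgeR), though it was called lower with length and GC offsets (-0.21) and with library totals alone (-0.17). The helicase genes split. Mcm7 measured 25.6, 26.0 and 19.5 against 8.65, 8.21 and 9.01 CPM (-1.46 ± 0.11, adjusted p = 8.8e-09), Mcm4 fell by 1.02 ± 0.08 and Mcm6 by 0.20 ± 0.07, from 21.6, 21.9 and 21.5 to 18.7, 18.8 and 19.0 CPM. Mcm2, Mcm3 and Mcm5 were not called, with changes from 0.00 to 0.26.

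The polymerase genes Pola1, Pold1 and Pole fell, and Pold1 measured 17.2, 18.7 and 16.0 CPM at rest and 10.6, 8.33 and 10.7 with cytokines. Cdc45 fell from 3.48, 3.37 and 3.82 CPM to 1.90, 1.46 and 1.85. Ticrr had the lowest change, -1.54 ± 0.41 (adjusted p = 0.0032), on counts of 13 to 19 at rest and 4 or 5 with cytokines. Rfc4 rose by 1.01 ± 0.32 (adjusted p = 0.0096), the highest S phase change, on counts of 15 to 20 against 26 to 40. Cdc6 was near the floor of detection, at 0.786, 0.562 and 1.27 against 0.675, 0.304 and 0.783 CPM, and overlapped.

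Mitotic levels were mostly a few CPM. Aurkb, the kinase of the passenger complex, had the lowest change, from 1.01, 1.48 and 1.62 CPM to 0.368, 0.730 and 0.447 (-1.40 ± 0.37, adjusted p = 0.0030), and Ube2c the highest, from 1.35, 2.66 and 1.16 CPM to 1.47, 2.25 and 2.13 (0.17 ± 0.33, adjusted p = 0.65), with overlapping groups and a sign that turned under library totals alone (-0.049). Kif11 fell from 4.32, 6.28 and 4.22 CPM to 2.95, 2.92 and 2.57, and Bub1b from 5.00, 4.24 and 4.45 to 2.45, 2.19 and 2.29. Top2a fell as well, and so did Cdk1, whose call was lost in 4 of 6 fits with 1 library left out (adjusted p from 0.062 to 0.080 by edgeR). Mki67 overlapped, at 40.9, 38.6 and 41.6 CPM against 41.2, 44.1 and 33.7, and so did Ccna2, at 3.09, 2.45 and 2.198 against 2.39, 1.89 and 2.24. In 11 of 21 S phase and 6 of 17 mitotic genes every T2 library lay below every resting library, against 39% of all genes.

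**Figure D3:**
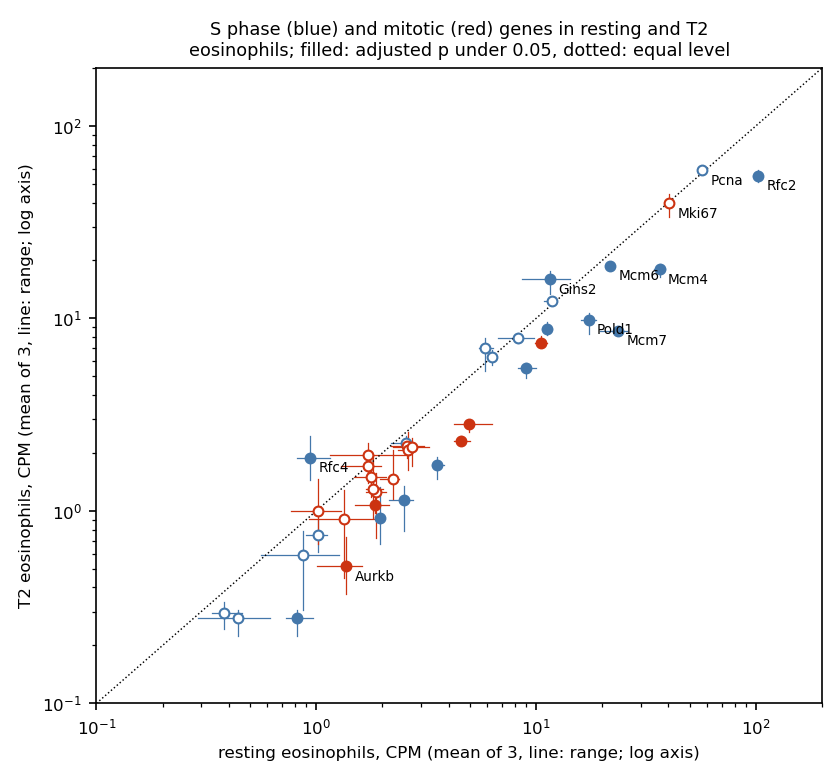
Mean CPM of each gene in resting (x, log axis) and T2 eosinophils (y, log axis), with lines for the range over 3 libraries, filled points for an adjusted p under 0.05 and a dotted line at equal levels. Rfc2, Mcm4 and Mcm7 lie below the line, while Pcna and Mki67 lie on or near it.

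Reads of some members cannot be told from those of a gene on the opposite strand, since the strand setting of the counting is not given. Exons of Gse1 cover 67.3% of Gins2's exon bases, and Gse1 stood at 227 CPM at rest and 223 with T2 cytokines beside 11.6 and 15.9 for Gins2, which was called higher (0.46 ± 0.15, adjusted p = 0.010). Eif4a2 covers 12.7% of Rfc4 and stood at 342 and 417 CPM beside 0.939 and 1.89. Lat2 covers 15.1% of Rfc2 and stood at 11.5 and 24.8 CPM, with its higher level in T2 cells, where Rfc2 was lower. Fen1 shares 78.8% of its exon bases with the antisense gene Gm10143. Pcna, Ccnb1 and Ccnb2 have processed pseudogenes, with which reads may be shared.

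Against the same 37.9% lower and 38.2% higher over all genes, 19 of 42 tested other replication genes fell and 10 rose, 24 of 46 other mitosis genes fell and 1 rose, and 10 of 18 regulators fell and 4 rose. Gmnn, the inhibitor of Cdt1, fell by 3.93 ± 0.22 and the nuclease Dna2 by 1.96 ± 0.07, while Cdc7, the kinase that fires origins, rose by 1.15 ± 0.27 and Pole4 by 0.85 ± 0.11. Espl1, separase, fell by 3.22 ± 0.11 and the phosphatase Cdc25b by 2.50 ± 0.16, and Cks2 rose by 0.32 ± 0.14. Tfdp2, a partner of E2F, fell by 3.22 ± 0.20 and E2f8 by 2.15 ± 0.23, while E2f3 rose by 2.10 ± 0.10 and E2f6 by 1.16 ± 0.13. Progenitor markers were near 0 in both groups, summing to between 20.9 and 23.6 CPM, while neutrophil markers summed to 2473 to 2697 at rest and 1104 to 1160 in T2 cells, a part that was not tested. With library totals alone the mitotic genes called lower were 9, where 5551 of 11345 genes were called lower, and the median of all genes was -0.23.

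DFO against control BMDEs asked what iron depletion does to eosinophils as they form in culture. S phase and mitotic genes were lower with DFO, and none was higher by edgeR, by DESeq2 or at an unadjusted p under 0.05. Of the S phase genes 9 of 23 fell, namely Mcm3, Mcm4, Mcm5, Mcm6, Mcm7, Rfc5, Fen1, Cdc6 and Cdt1, and of the mitotic genes 12 of 17 fell, where 5.12% of all 12607 tested genes were called lower and 6.46% higher, 11.6% in all. The mitotic genes were Cdk1, Ccna2, Ccnb1, Ccnb2, Aurka, Aurkb, Bub1, Plk1, Cdc20, Tpx2, Ube2c and Nusap1. The median was -0.30 for S phase and -0.41 for mitotic genes, against 0.00 over all genes. Every DFO library lay below both controls in 21 of 23 S phase and in all 17 mitotic genes, against 32.9% of all genes.

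By role, both loading factors, 5 of the 6 helicase genes and 2 of 6 genes of the clamp group fell. With the 3 arms fitted together 0 of 5 activation and 0 of 4 polymerase and primase genes were called. With only the arms compared 20 of the 23 S phase genes were called lower, genes of both these roles among them. Of all 12469 genes tested 3025 were then called lower. Mcm6 measured 259 and 281 CPM in controls and 222, 220.4 and 215 with DFO. Cdc6 had the lowest S phase change, from 63.2 and 59.4 CPM to 40.6, 43.7 and 43.7 (-0.52 ± 0.13, adjusted p = 0.032), and Rfc2 the highest, from 117 and 121 to 123, 123 and 118 (0.03 ± 0.14, adjusted p = 0.91, and -0.020 under length and GC offsets). Cdc45 was lower in all 3 DFO libraries, at 55.3, 51.8 and 51.0 CPM against 64.2 and 63.9, and Pold1 at 79.3, 75.6 and 78.2 against 86.0 and 88.0, and neither was called. Pcna was likewise lower and not called, at 219, 214 and 207 against 261 in both controls.

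All 4 genes of the mitotic cyclins and their kinase fell, as did all 3 mitotic kinases and both genes of mitotic exit. Ube2c had the lowest change of the 40, from 123 CPM in both controls to 80.8, 73.0 and 71.1 (-0.71 ± 0.18, adjusted p = 0.035). Ccna2, the cyclin of S phase and early mitosis, fell from 184 and 179 CPM to 136, 128 and 130.2 (-0.47 ± 0.07, adjusted p = 0.0037), and Aurkb from 76.5 and 79.3 to 64.8, 63.8 and 63.9. Bub1b had the highest mitotic change, from 91.0 and 95.3 CPM to 79.1, 76.0 and 78.0 (-0.26 ± 0.12, adjusted p = 0.20). Mki67 (718, 686 and 685 against 843 and 869 CPM) and Kif11 (138, 136 and 127 against 169 in both controls) were lower in each library and were not called.

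FAC against control BMDEs asked the reverse question, with the same control libraries. By edgeR no S phase gene was called in either direction (2 of 23 were higher by DESeq2 and 2 at an unadjusted p under 0.05, none lower by either), and 3 of 17 mitotic genes rose, Ccnb2, Plk1 and Aurkb, where 1.76% of all genes were called higher and 4.28% lower, 6.04% in all. Ccnb2, a cyclin of mitotic entry, rose from 80.6 and 81.5 CPM to 108, 114, 102 and 104 (0.40 ± 0.07, adjusted p = 0.015), Plk1 from 90.6 and 86.4 to 118, 129.6, 110.0 and 118 (0.42 ± 0.08, adjusted p = 0.021) and Aurkb from 76.5 and 79.3 to 92.5, 96.4, 92.2 and 91.4 (0.26 ± 0.06, adjusted p = 0.046). Every FAC library lay above both controls in 13 of 17 mitotic and 7 of 23 S phase genes, against 17.1% of all genes. The medians were 0.20 and 0.08, against -0.02 over all genes, and with library totals alone 0.12 and -0.01, against -0.10. On the TPM scale the S phase sum was 1728 ± 113 with FAC and 1828 ± 34.8 in controls, the other direction from CPM, and the mitotic sum 1714 ± 145 and 1639 ± 21.4.

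At the ends of the sets, Ube2c was highest, at 171, 239, 147 and 156 CPM against 123 in both controls (0.53 ± 0.18, adjusted p = 0.12), and Bub1b lowest of the mitotic genes (-0.01 ± 0.11, adjusted p = 0.94), with a sign that changed between settings. Among S phase genes Pcna was highest, at 284, 412, 275 and 298 CPM against 261 (0.28 ± 0.15, adjusted p = 0.29), and Pole lowest (-0.19 ± 0.21, adjusted p = 0.58). Of the other leading genes of each role, FAC BMDEs had Mcm6 at 294, 291, 282 and 279 CPM, Cdc6 at 65.4, 47.2, 64.5 and 59.1 CPM, Cdc45 at 77.8, 84.3, 72.9 and 71.1, Pold1 at 94.6, 78.4, 96.0 and 88.5, Mki67 at 955, 544, 1148 and 899, Ccna2 at 207, 222, 212 and 208, Bub1b at 103, 75.4, 98.4 and 92.4, and Kif11 at 182, 151, 197 and 179. In that list the lowest value of Cdc6, Pold1, Mki67, Bub1b and Kif11 is that of replicate 6, and so is the highest of Cdc45 and Ccna2.

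**Figure D4:**
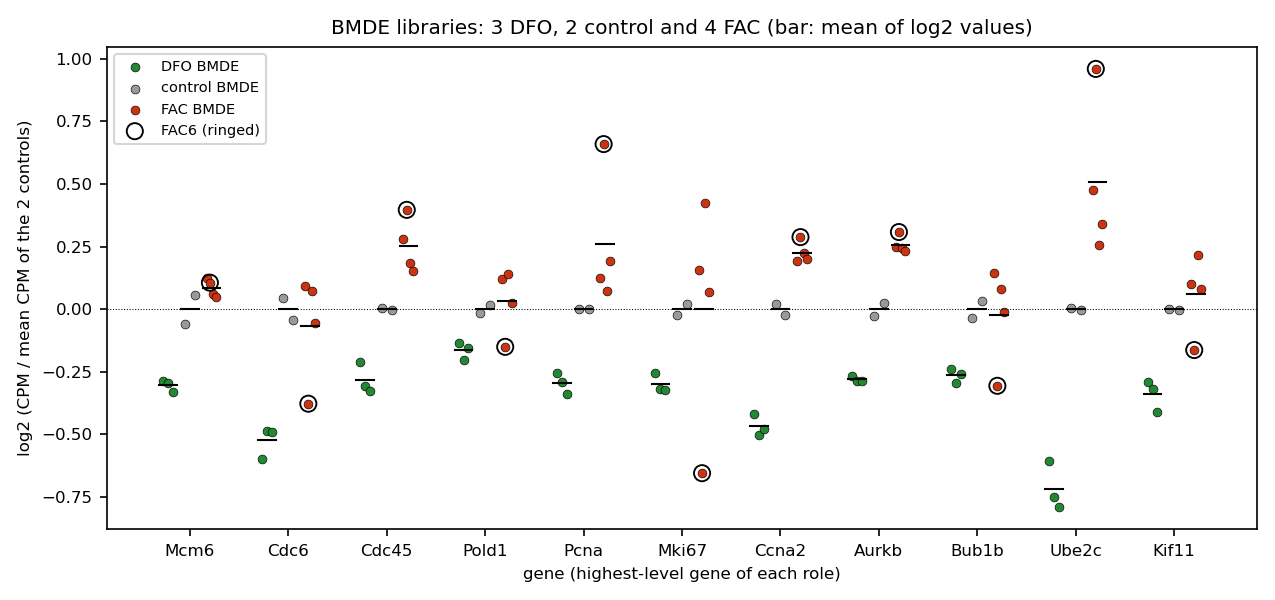
For the highest-level gene of each of 11 roles, log2 of CPM over the mean of the 2 controls (y) in every DFO, control and FAC library, with bars at the mean of log2 values and FAC replicate 6 ringed. All 3 DFO points lie below the controls for each of the 11 genes, and the ringed library is the highest or lowest of its arm for 10 of them.

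FAC replicate 6 set much of the spread in this table. Its deviation from the other 3 FAC libraries followed transcript length, with a Spearman rho of -0.62 over the 40 genes and -0.70 over 11144 genes, a description over genes that share 1 library. Other libraries also followed length, with a rho over the 40 genes of 0.64 in FAC replicate 7, whose comparison libraries include replicate 6, 0.62 in GMP replicate 2 and -0.55 in GMP replicate 3. In FAC replicate 6 Mki67, at 10061 bases the longest, was lower by 0.88 on the log2 scale and Pole by 0.84. Birc5 was higher by 0.67 and Ube2c by 0.60. Without FAC replicate 6 the calls were 18 S phase and 17 mitotic genes lower for DFO against control. Of all 12560 genes tested 2531 were then called lower, against 646 of 12607 with all libraries. For FAC against control 2 S phase and 13 mitotic genes were called higher. Of all genes 1254 were then called higher, against 222 with all libraries. Leaving out control replicate 1 or 2 instead leaves 1 control, and calls then became few over all genes as over the members. The medians with DFO were then -0.33 and -0.31 for S phase and -0.42 and -0.39 for mitotic genes. With FAC the mitotic medians were 0.22 and 0.20. With 1 control the spread comes from the other arms, and the lone library is assumed to vary as they do. Leaving out DFO replicate 9, 11 or 12 left 1, 0 or 2 S phase and 6, 5 or 4 mitotic genes called lower. Over all genes 300 of 12554, 239 of 12546 or 253 of 12557 were then called lower.

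**Figure D5:**
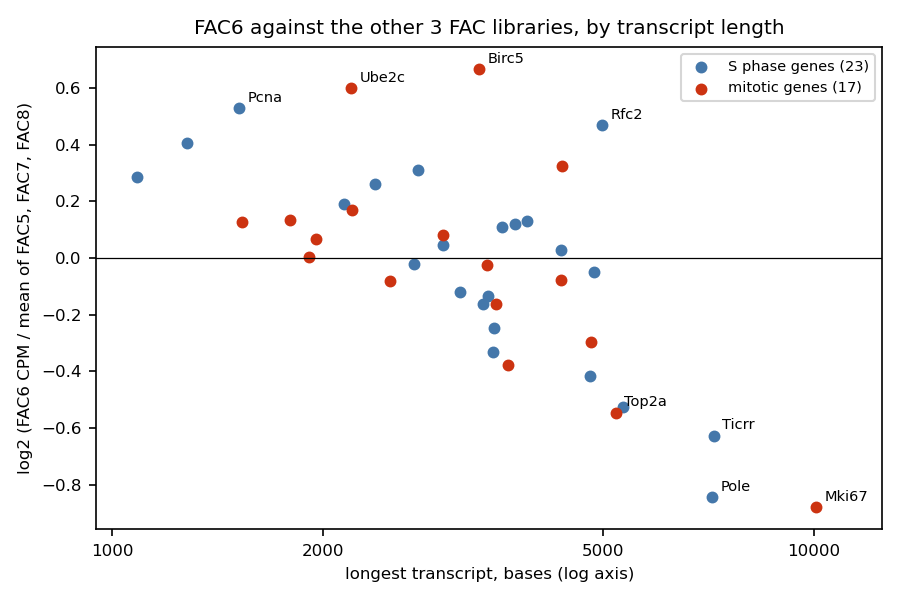
Log2 of CPM in FAC replicate 6 over the mean of the other 3 FAC libraries (y) against the longest annotated transcript (x, bases, log axis), 1 point per gene. Long transcripts such as Mki67, Pole and Ticrr lie below 0, and Pcna, Ube2c, Birc5 and Rfc2 lie above it.

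FAC against DFO BMDEs set the iron-loaded against the iron-depleted arm, and the controls shared the fit but were not compared. In CPM both sets were higher with FAC. Of the S phase genes 17 of 23 rose and of the mitotic genes 15 of 17, and none fell (none by DESeq2 or at an unadjusted p under 0.05), where 23.5% of all genes were called higher and 24.8% lower, 48.2% in all. The median was 0.36 for S phase and 0.59 for mitotic genes, against -0.01 over all genes. On the TPM scale the S phase sums lay closer, at 1728 ± 113 with FAC and 1576 ± 4.19 with DFO. FAC replicate 6, at 1571.7, was within the DFO range of 1571.05 to 1578.78. The mitotic sums were 1714 ± 145 and 1277 ± 16.9. Mcm2, called higher on counts, averaged 73.0 TPM with FAC and 73.5 with DFO. Groups did not overlap in 17 S phase and 15 mitotic genes, all higher with FAC, against 26.8% of all genes.

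The S phase genes that rose were Mcm2, Mcm3, Mcm4, Mcm5, Mcm6, Mcm7, Mcm10, Pcna, Rfc3, Rfc4, Rfc5, Fen1, Gins1, Gins2, Cdc45, Cdc6 and Cdt1. All 6 helicase genes, both loaders, 4 of 5 activators and 5 of 6 genes of the clamp, its loader and Fen1, the flap nuclease, were among them. Of the polymerase and primase genes 0 of 4 were called with all libraries, and no test of a difference between roles was made. Without FAC replicate 6, 21 of the 23 S phase genes were called higher, some polymerase and primase genes among them. Of all 12560 genes tested 4003 were then called higher. Rfc4 had the highest change, 14.3, 17.1 and 14.5 CPM with DFO against 24.3, 31.0, 21.4 and 24.5 with FAC (0.73 ± 0.13, adjusted p = 0.0017). Pole had the lowest, 53.5, 54.2 and 60.8 against 60.2, 34.03, 65.5 and 57.3 (-0.05 ± 0.19, adjusted p = 0.84), and it turned to 0.13 without FAC replicate 6 (adjusted p = 0.086).

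The mitotic genes that rose were Top2a, Cdk1, Ccna2, Ccnb1, Ccnb2, Aurka, Aurkb, Bub1, Plk1, Cdc20, Kif11, Birc5, Tpx2, Ube2c and Nusap1. Ube2c had the highest change of all 40, 1.25 ± 0.16 (adjusted p = 0.00024), then Birc5 at 0.88 ± 0.16 and Cdk1 at 0.86 ± 0.09. Bub1b had the lowest mitotic change, 0.25 ± 0.10 (adjusted p = 0.067), and Mki67, at 0.35 ± 0.20 (adjusted p = 0.18), was the other not called. Without FAC replicate 6 all 17 were called, and so were 21 of the 23 S phase genes. Of all 12560 genes tested 4003 were then called higher, against 2959 of 12607 with all libraries. Over the other single libraries left out, the S phase calls were 15 or more and the mitotic calls 14 or more.

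Genes of the other cell cycle lists were read in the cultures as well. With DFO 12 of 44 other replication genes and 20 of 50 other mitosis genes fell and none rose. Of all genes 5.12% were called lower and 6.46% higher. Orc1 (-0.52 ± 0.12) and Pole2 (-0.46 ± 0.12) led the replication genes, and Tacc3 and Nek2 (-0.57 ± 0.08 and -0.57 ± 0.07) the mitosis genes. Among the 19 regulators 3 fell, with Tfdp1 (-0.40 ± 0.11) and E2f2 (-0.37 ± 0.07) the lowest, and none rose. With FAC against control Tacc3, a spindle protein (0.33 ± 0.07), and E2f2 (0.45 ± 0.06) were the only genes of these lists called. Of all genes 1.76% were called higher and 4.28% lower. In FAC against DFO 29 other replication genes rose and 2 fell, 33 other mitosis genes rose and none fell, and 7 regulators rose and 1 fell. Of all genes 23.5% were called higher and 24.8% lower. Gmnn (0.83 ± 0.13), Dscc1 (0.77 ± 0.17), Tacc3 (0.89 ± 0.07), Spc25 (0.85 ± 0.13), E2f2 (0.82 ± 0.06) and Tfdp1 (0.54 ± 0.10) led the rises, and Mcm9 (-0.51 ± 0.13), Dna2 (-0.46 ± 0.13) and Tfdp2 (-0.46 ± 0.13) fell.

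Cell type markers moved across the same 3 arms. The 10 eosinophil markers summed to 18627 to 22014 CPM with DFO, 42536 to 43485 in controls and 57859 to 70002 with FAC. The 10 neutrophil markers went the other way, at 16750 to 18820, 9133 to 10921 and 6418 to 9285 CPM (control and FAC overlapping), and so did the 8 progenitor and primary granule markers, at 1343 to 1415, 989 to 1005 and 763 to 886 CPM. The 10 dendritic markers summed to 3617 to 3824, 2331 to 2403 and 1520 to 3024 CPM, with 4 called higher in DFO against control and 8 lower in FAC against DFO. The 5 megakaryocyte markers summed to 1778 to 1856, 1476 to 1541 and 1342 to 1550 CPM. No marker of the eosinophil, neutrophil and progenitor lists was at 0 in any arm. Their part in the levels of the S phase and mitotic genes was not tested.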

How the data were processed

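RNA was read by oligo(dT) RNA-seq in 21 libraries. Expected counts and TPM in the GMP and BMDE tables, and whole read counts and FPKM in the T2 table, are as the authors deposited them; the submitters' processing notes name fastp 0.18.0, Bowtie2 2.2.8, HISAT2, StringTie 1.3.1, RSEM and mm10, with no role or order. The strand setting is not given in the sources used here. Rounding made the expected counts whole. Tables were fitted separately in edgeR 4.0.16 (R 4.3.3; TMM, filterByExpr by group, quasi-likelihood F test, two-sided, Benjamini-Hochberg over all genes tested, called at an adjusted p under 0.05), with the 3 BMDE arms in 1 fit. The code was tested on simulated data. Members and lists were chosen with earlier results of these data known. Named were the gene of highest mean CPM in each role, the highest and lowest log2 change of each set in each comparison, each called member in the BMDE comparisons and the 2 largest called changes each way in the other lists; other members named were chosen after their values were seen. Alternatives were DESeq2 1.42.0, other scalings, no filter, length and GC offsets (spline, 4 degrees of freedom each, on GENCODE M21 transcripts), a replicate block, only the arms compared and single libraries left out; scaling by library totals alone was added after seeing the data. No library was a duplicate of another. Whether replicate numbers pair the samples is not stated, and the main fits used no pairing.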

Additional observations from a re-analysis of the deposited data

Results flagged for a closer look

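In the 4 FAC BMDE libraries, replicate 6 lay far above the other 3 for Pcna, at 412.3 CPM, and for Birc5, at 165.2 CPM, with a gap to the nearest library past Dixon's critical value for 4 samples. These were 2 of the 40 genes tested, and chance passes that value in about 1 of 20 groups. Replicate 6 was the end library with the larger gap to its neighbor in 29 of the 40 genes.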

How the results depend on the processing

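The counts of genes called depended on the setting more than their directions did. For bone marrow eosinophils against GMPs the 4 S phase genes called lower became 9 with DESeq2 and 9 with length and GC offsets, and ranged from 1 to 9 with single libraries left out, while those called higher ranged from 0 to 1. Calls over all genes moved too. Those lower went from 828 to 1549 with DESeq2 and 1042 with offsets, and ranged from 125 to 2078 with single libraries left out. The 4 mitotic genes called higher became 2 with library totals alone and ranged from 1 to 6, and with length and GC offsets 1 was called lower. Over all genes those called higher went from 1585 to 982 with library totals alone and ranged from 622 to 2545. For T2 against resting, the 2 S phase genes called higher became 1 with library totals alone and ranged from 1 to 3, without resting replicate 3 or T2 replicate 1 at the low end and without T2 replicate 2 at the high end. The 5 mitotic genes called lower became 9 with library totals alone. With that scaling the calls over all genes went from 4329 to 3158 higher and from 4303 to 5551 lower. For DFO against control the 9 S phase genes called lower became 15 with length and GC offsets, 20 with only the arms compared, and 0 to 18 with 1 DFO or FAC library left out. The 12 mitotic genes then ranged from 4 to 17. Fits left with 1 control are not counted here. Over all genes those called lower went from 646 to 1301 with offsets and 3025 with only the arms compared. With 1 DFO or FAC library left out they ranged from 239 to 2531. For FAC against control the S phase genes called higher were 2 with DESeq2 and ranged from 0 to 2. The 3 mitotic genes became 7 with DESeq2, 6 with length and GC offsets, 0 with only the arms compared, and 1 to 13 with 1 DFO or FAC library left out. Over all genes the 222 called higher became 554, 494 and 23 with those settings in turn. With 1 DFO or FAC library left out they ranged from 70 to 1254. For FAC against DFO no count moved by over 1.5 times. The causes were not tested.

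Among members not called, a sign changed under some setting in 16 genes for bone marrow eosinophils against GMPs, 7 for T2 against resting, 15 for FAC against control and 2 for FAC against DFO, beside the genes at the ends of the sets given next. Pcna in T2 cells was moreover called lower under 3 settings, length and GC offsets with and without the block and library totals alone. Rfc4 in bone marrow eosinophils turned to -0.36 with length and GC offsets. Ube2c in T2 cells turned to -0.049 with library totals alone and ranged from -0.042 without resting replicate 3 to 0.64 without resting replicate 2. Rfc2 with DFO turned to -0.020 with length and GC offsets. Bub1b with FAC against control turned to 0.0046 with DESeq2 and with its size factors, 8.5e-05 with only the arms compared, 0.021 without control replicate 2 and, over single libraries left out, from -0.055 to 0.081 (without FAC replicate 6). Pole in FAC against DFO turned to 0.23 with length and GC offsets, 0.13 without FAC replicate 6 and 0.0098 without DFO replicate 12, over a range from -0.13 to 0.13. The causes were not tested.

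With the replicate number as a block, bone marrow eosinophils against GMPs had 2 S phase genes called lower and 1 mitotic gene called higher, where 395 of all genes were called lower and 1024 higher. With length and GC offsets as well, 1 mitotic gene was called lower, where 631 of all genes were, and Rfc4 was at -0.36. In the same blocked fit with offsets T2 against resting had 1 S phase gene called higher, where 4341 of all genes were. Deviations of same-numbered libraries correlated at 0.0050 to 0.12 in the GMP table and at -0.022 to 0.033 in the T2 table. Differently numbered libraries correlated at -0.18 to 0.14 and at -0.049 to 0.052. With 3 libraries per group these values cannot tell whether same-numbered samples share an animal or batch. BMDE arms share no replicate numbers.

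Among all called genes the share called higher in bone marrow eosinophils was 65.7%, against 40.3% with library totals alone and 55.1% without eosinophil replicate 3. In T2 cells it was 50.2% against 36.3% with library totals alone, and in FAC against DFO 48.7% against 32.3%. In FAC against control it was 29.2%, against 42.1% with DESeq2, 16.0% with library totals alone and 46.0% without FAC replicate 6. Low counts in resting and T2 cells limit what can be seen of the mitotic genes there.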
